A study of Mus musculus with 20 samples.

Results

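Costimulatory and coinhibitory ligands were examined in CNS-associated macrophages of the dura mater (dCAMs), the macrophages that line the outer meningeal layer. The set comprised 10 genes of the 33243 listed in the count table, Tnfsf9, Cd40, Cd80, Cd86, Cd274, Pdcd1lg2, Icosl, Tnfsf10, Tnfsf12 and Tnfsf14, and all 10 were among the 16632 genes with enough counts to be tested. Tnfsf9 was chosen by its own values in these libraries, namely its difference between the macrophage populations of unchallenged mice and between their responses to lipopolysaccharide (LPS), so its values are given as a description without a test. The other 9 were joined to it by gene family and function. They include Cd40, which is a receptor of the same interaction system and is listed here because antigen-presenting cells carry it.

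The 20 libraries came from 10 adult mice of both sexes carrying Ccr2creERT2 (heterozygous) and R26tdT (homozygous), in which tamoxifen switches on the red fluorescent protein tdTomato (tdT) in cells that express Ccr2 at that moment. All mice had first lost their macrophages to the CSF1R inhibitor BLZ945 (200 mg per kg for 7 days), with tamoxifen (2 mg per day) on its last day and 2 and 4 days later, and macrophages had then refilled the dura for 8 weeks. The 5 LPS mice (numbers 54, 56, 59, 60 and 61) received LPS at 2.5 mg per kg and the 5 CTL mice (174, 175, 177, 178 and 179) received PBS, and the dura was taken 12 h later. From every mouse, CD45int CD11b+ CD206int-high cells were sorted by their tdT signal into a tdT+ and a tdT− library, giving tdT− CTL, tdT+ CTL, tdT− LPS and tdT+ LPS groups of 5. Mice without depletion were not analysed here, and tdT− cells are those without recombination at the time of tamoxifen, so that the label marks Ccr2 history and not a defined lineage.

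T cells need a further signal besides antigen, and antigen-presenting cells deliver it through surface ligands of the B7 family and of the tumour necrosis factor (TNF) superfamily. CD80 and CD86 bind CD28 and the inhibitory receptor CTLA-4, ICOS ligand binds ICOS, and PD-L1 (Cd274) and PD-L2 (Pdcd1lg2) restrain T cells through PD-1. Of the TNF superfamily, 4-1BBL (Tnfsf9) sustains activated T cells through 4-1BB (Tnfrsf9), TRAIL (Tnfsf10) can trigger death of cells that carry its receptors, TWEAK (Tnfsf12) acts on Fn14 (Tnfrsf12a), and LIGHT (Tnfsf14) binds HVEM (Tnfrsf14) and the lymphotoxin beta receptor. Macrophages at tissue borders can display many of these ligands, and LPS is a classical inducer of several.

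CPM expresses a gene's reads relative to the size of its library, here scaled by TMM, a correction for library composition. A count of 3 or fewer in a library was taken as the floor. Total counts ranged from 6017650 to 18925908 per library and were larger in LPS mice. Libraries reached 6671 to 9365 genes with at least 10 counts in the tdT− CTL group, and 10024 to 11032 in the tdT+ CTL group. In LPS mice the numbers were 10930 to 11812 (tdT−) and 11250 to 11987 (tdT+). All 12 macrophage markers (among them Mrc1, the gene for CD206) were detected in every group, with summed levels of 6742 to 13233 CPM (tdT−) and 14915 to 17043 CPM (tdT+) in CTL mice and of 7441 to 8556 CPM (tdT−) and 8887 to 11288 CPM (tdT+) in LPS mice. Since these are bulk libraries, fewer cells that express a gene and less RNA per cell cannot be told apart.

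Per kilobase of annotated exon, Tnfsf9 had the highest level of the 10 genes when the 4 group means were averaged (162 CPM per kb), followed by Cd86 (63.7) and Cd274 (42.7). Cd40 (24.0), Tnfsf12 (15.2), Cd80 (14.1) and Icosl (13.1) were intermediate. Tnfsf10 (4.64), Tnfsf14 (4.33) and Pdcd1lg2 (0.846) were the lowest. This order held for the average only. In tdT+ CTL dCAMs, Cd86 (105 CPM per kb) was above Tnfsf9 (45.0), and in tdT− LPS dCAMs Cd274 (89.1) and Tnfsf9 (86.2) were close to each other.

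**Figure D1:**
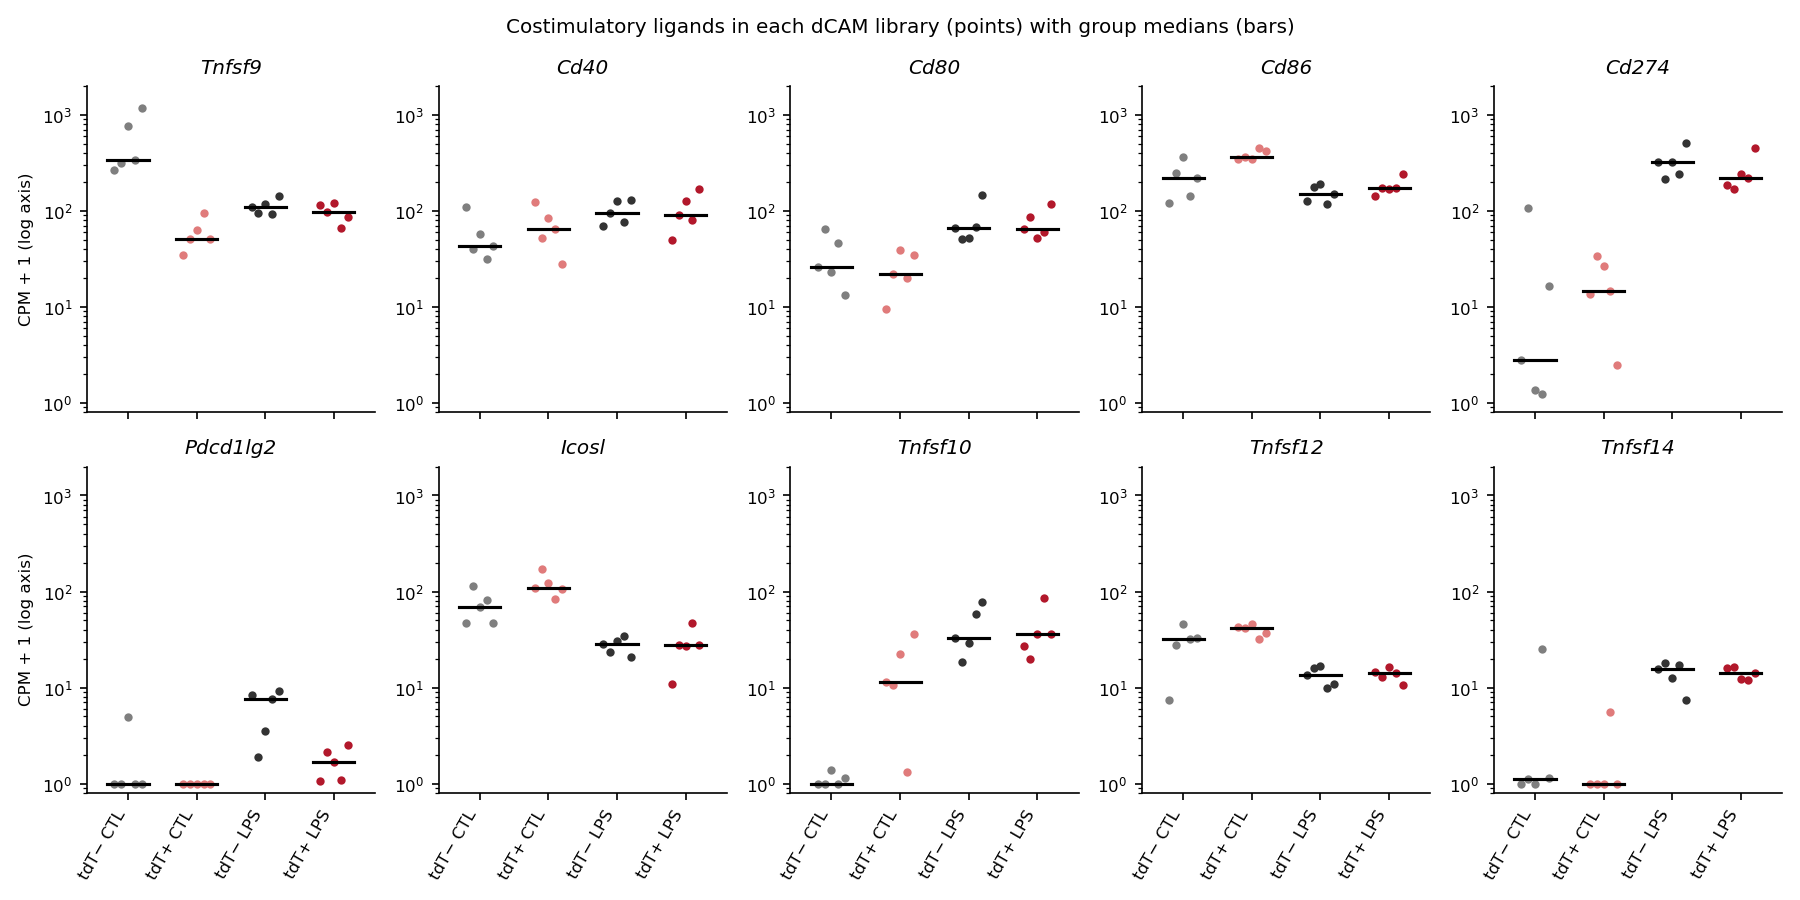
Each panel shows 1 gene, each point 1 library (CPM + 1 on a log axis) and each bar the median of the 5 libraries of a group, with tdT− CTL, tdT+ CTL, tdT− LPS and tdT+ LPS from left to right. Tnfsf9 is highest in tdT− CTL (265 to 1187 CPM), Tnfsf10 is near 0 in all 5 libraries of that group, Cd274 is at or above 170 CPM in every LPS library, and within each population Icosl is lower in all LPS libraries than in any CTL library.

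Tnfsf9 (chromosome 17, 57105325 to 57107757, plus strand; this and all later coordinates are those of GRCm38) is a protein-coding gene that shares 192 exonic bases with Gm11110 on the opposite strand. In tdT− CTL libraries it had 265, 317, 760, 336 and 1187 CPM in mice 174, 175, 177, 178 and 179. In tdT+ CTL libraries it had 33.8, 49.8, 62.6, 94.6 and 49.8 CPM in the same order of mice. The lowest tdT− library of the CTL mice thus lay above the highest tdT+ library, and mice 177 and 179 held the 2 highest tdT− values.

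Within each CTL mouse the tdT− library exceeded the tdT+ library of the same dura, by a factor of 7.85 in mouse 174, 6.37 in 175, 12.1 in 177, 3.55 in 178 and 23.9 in 179. The fitted log2 fold change of tdT+ against tdT− was −3.30 ± 0.40 (SE, n = 5 per group), on means of 58.1 ± 22.8 and 573 ± 397 CPM (SD). Under LPS the populations overlapped. Tnfsf9 then had 110, 94.8, 117, 91.3 and 143 CPM in the tdT− libraries of mice 54, 56, 59, 60 and 61, and 115, 96.2, 120, 65.0 and 85.7 CPM in the tdT+ libraries. The ratio of tdT− to tdT+ lay between 0.957 and 1.67, and the log2 difference of tdT+ minus tdT− was −0.21 ± 0.36.

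All LPS libraries of tdT− dCAMs were below all of their CTL libraries, with a log2 fold change of −2.37 ± 0.38. In tdT+ dCAMs the LPS and CTL libraries overlapped and the log2 fold change was 0.73 ± 0.36. The LPS effect in tdT+ minus that in tdT− dCAMs was 3.09 ± 0.52. These values chose the gene and are therefore no evidence of their own. Over all alternative ways of processing, the difference of the effects stayed between 2.59 and 3.44 and the log2 fold change between populations in CTL mice between −3.63 and −2.80.

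Markers of other cells differed between the groups as well. The summed level of 5 fibroblast markers was 10.9 to 3993 CPM (tdT−, median 277) and 128 to 336 CPM (tdT+) in CTL mice. In LPS mice it was 56.7 to 333 CPM (tdT−) and 88.5 to 313 CPM (tdT+). Of these 5 markers 0 passed between the populations of CTL mice. The summed level of 9 dendritic cell markers was 837 to 3353 CPM (tdT−) and 225 to 415 CPM (tdT+) in CTL mice, and 354 to 793 CPM (tdT−) and 27.1 to 89.3 CPM (tdT+) in LPS mice, with Xcr1 and Clec9a at 0 in all tdT− CTL libraries. Ccr2, a marker of monocytes and the gene whose promoter drives the Cre here, had 419 to 906 CPM (tdT−) and 160 to 463 CPM (tdT+) in CTL mice, and 55.2 to 92.2 CPM (tdT−) and 9.65 to 22.6 CPM (tdT+) in LPS mice. Plac8, another monocyte marker, had 18.3 to 377 CPM (tdT−) and 0 to 1.26 CPM (tdT+) in CTL mice, and both passed the threshold there as lower in tdT+. Within the dendritic cell sum of CTL mice, Cd209a had 315 to 2774 CPM (tdT−) and 25.5 to 65.1 CPM (tdT+), while Siglech ran the other way, with 3.14 to 149 CPM (tdT−) and 171 to 324 CPM (tdT+). In CTL mice the sum and Ccr2 thus ran in the direction of Tnfsf9. The populations overlapped for Ccr2 in CTL mice and were apart for the sum. In LPS mice they were apart for both, where Tnfsf9 overlapped. Ccr7 then had the highest mean of the dendritic cell markers in tdT− libraries, with 222 to 599 CPM (tdT−) and 1.49 to 16.4 CPM (tdT+). Cd209a overlapped there like Tnfsf9, with 3.44 to 61.5 CPM (tdT−) and 2.74 to 36.4 CPM (tdT+). Its tdT− LPS libraries all lay below its tdT− CTL libraries. The part of these cells in the Tnfsf9 level was not tested.

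The genes whose log2 CPM followed that of Tnfsf9 most closely across the 20 libraries were Ubb (Pearson r = 0.896), Tpt1 (r = 0.884), Tuba1a (r = 0.874), Rpl19 (r = 0.866) and Hmgb2 (r = 0.862), out of the 5822 genes whose average log2 CPM reached 4. Ubb encodes ubiquitin, Tpt1 a translationally controlled protein, Tuba1a an alpha tubulin, Rpl19 a ribosomal protein and Hmgb2 a chromatin protein. By Spearman rank correlation only Tpt1 (rho = 0.874) of these 5 was again among the closest 5. The points share library composition and group, so this is a description. Among the other 9 ligands, the 6 that reach that level had r between −0.361 (Cd274) and 0.0532 (Tnfsf12) with Tnfsf9.

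Of the 9 other ligands, Tnfsf10 passed the threshold between the populations of CTL mice, and its direction was opposite to that of Tnfsf9. It had 0, 0, 3, 0 and 1 counts in the tdT− CTL libraries of mice 174, 175, 177, 178 and 179, and 65, 91, 184, 3 and 461 counts in their tdT+ libraries. In CPM, tdT+ CTL libraries spanned 0.314 to 35.3 with a median of 10.5. All tdT− CTL libraries were at or under the floor, and 1 of the 5 tdT+ libraries, that of mouse 178, was as well.

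**Figure D2:**
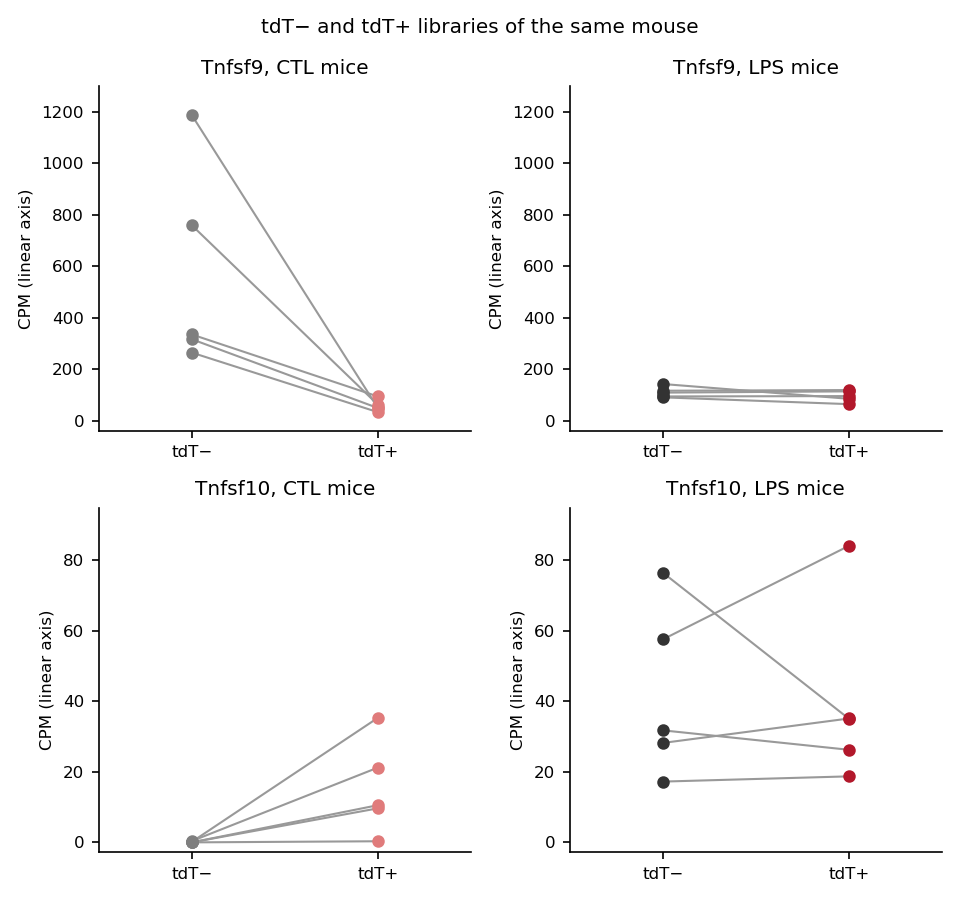
Lines join the tdT− and the tdT+ library of the same mouse for Tnfsf9 (top) and Tnfsf10 (bottom) in CTL (left) and LPS mice (right), in CPM on linear axes that differ between the genes. In CTL mice all 5 lines fall for Tnfsf9 and none falls for Tnfsf10, and in LPS mice the lines of both genes run in both directions.

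Tnfsf10 passed the threshold between the populations of CTL mice (edgeR quasi-likelihood test, Benjamini-Hochberg adjusted p = 0.000999), and tdT+ was higher in 5 of 5 mice. The group sums of 804 and 4 counts gave a ratio of 173 after scaling, with an exact 95% interval from 67.4 to 637 that covers counting error only. It was 1 of the 9 ligands past the threshold as higher in tdT+, where 3.01% of all tested genes were. Tnfsf10 and Icosl had the same sign in all 5 CTL mice, as 9.46% of all genes did. The Tnfsf10 call did not hold with quality weights in limma-voom (adjusted p = 0.175) or in a fit of these 10 libraries alone (0.239). Over the alternatives its adjusted p ran from 4.44e-10 to 0.239.

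Near-empty genes were common in tdT− CTL libraries. Of the 2098 genes with an average log2 CPM between 4 and 5, where Tnfsf10 lies, 28.4% of gene and library pairs were at or under the floor in tdT− CTL, against 3.71% in the tdT+ group of the same mice. The LPS groups had 0.982% (tdT−) and 0.639% (tdT+). In all 5 tdT− CTL libraries at once, 19 of these genes (0.906%) were at or under the floor. The part of this sparseness in the Tnfsf10 result was not tested. With all libraries thinned to 6017650 counts, Tnfsf10 had 0 or 1 count in each tdT− CTL library and 3 to 210 in the tdT+ CTL libraries.

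Under LPS, Tnfsf10 had 31.8, 17.2, 28.2, 57.6 and 76.5 CPM in the tdT− libraries and 26.3, 18.7, 35.1, 84.1 and 35.1 CPM in the tdT+ libraries of mice 54, 56, 59, 60 and 61. Every tdT− LPS library lay above every tdT− CTL library, and the populations overlapped widely. In tdT− dCAMs Tnfsf10 rose (adjusted p = 6.30e-05), from 4 counts in the group to 2786, a ratio of 411 (exact 95% interval 160 to 1509, counting error only), and the call held under all 19 alternatives. In tdT+ dCAMs the log2 fold change was 1.37 ± 0.87 (adjusted p = 0.437). The LPS effect in tdT+ minus that in tdT− was −7.21 ± 1.40 on the fitted log2 scale (adjusted p = 0.0109), which depends on how near-zero counts are handled. Tnfsf10 was the only one of the 9 ligands past the threshold for this difference, against 1.26% of all genes. The call for the difference was lost without mouse 59 (adjusted p = 0.0541) or mouse 61 (0.0641) and with quality weights (0.241). Over its alternatives the adjusted p ran from 1.52e-06 to 0.241. The comparison of populations in CTL mice, the LPS effect in tdT− dCAMs and this difference share the tdT− CTL libraries.

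Promoter sequences of RefSeq (GRCm38.p6, 250 bases before to 50 after the start) matched 6 of the 10 genes. The stretches of Tnfsf10 and Cd274, which rose under LPS, of Icosl, which fell, and of Pdcd1lg2, the neighbour of Cd274, are printed 5′ to 3′ on the plus strand up to the first base that either RefSeq or GENCODE assigns to the gene. Capitals mark the motif AANNGAAA of interferon regulatory factors or its reverse complement TTTCNNTT. The places are chr3:27316827-27317027 for Tnfsf10, chr19:29367188-29367437 for Cd274, chr19:29410669-29410918 for Pdcd1lg2 and chr10:78069118-78069301 for Icosl.
Tnfsf10: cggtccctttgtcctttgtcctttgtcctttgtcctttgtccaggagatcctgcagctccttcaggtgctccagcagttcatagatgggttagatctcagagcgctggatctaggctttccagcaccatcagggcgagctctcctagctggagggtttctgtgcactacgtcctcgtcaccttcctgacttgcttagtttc
Cd274: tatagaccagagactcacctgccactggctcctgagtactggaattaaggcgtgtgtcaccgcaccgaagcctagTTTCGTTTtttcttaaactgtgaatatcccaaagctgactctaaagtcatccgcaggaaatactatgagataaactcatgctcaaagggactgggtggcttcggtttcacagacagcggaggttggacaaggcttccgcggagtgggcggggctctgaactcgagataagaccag
Pdcd1lg2: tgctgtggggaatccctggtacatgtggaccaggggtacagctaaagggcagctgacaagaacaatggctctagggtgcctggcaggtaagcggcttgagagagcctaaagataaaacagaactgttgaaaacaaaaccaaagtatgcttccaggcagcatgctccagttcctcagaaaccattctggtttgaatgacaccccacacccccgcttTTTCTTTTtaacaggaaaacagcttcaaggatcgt
Icosl: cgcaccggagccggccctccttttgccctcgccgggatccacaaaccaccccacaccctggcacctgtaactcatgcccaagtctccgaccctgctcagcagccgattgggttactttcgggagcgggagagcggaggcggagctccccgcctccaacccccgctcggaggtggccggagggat
In the full windows of 300 bases, Cd274 held 1 match (TTTCGTTT, its first base at −175 from the RefSeq start), Pdcd1lg2 held 1 (TTTCTTTT, at −35) and Cd80 held 1. Tnfsf10 held 2 (TTTCACTT at −53 and AAAAGAAA at −30), both reaching past the stretch printed here. Icosl and Tnfsf14 held 0. Of all 32851 promoter windows, 23.9% held this motif. The GAS motif TTCNNNGAA was in 8.3% of all windows and in 0 of the 6. The motifs overlap in part, and a match describes letters only.

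Across the 9 ligands, LPS moved genes both ways. In tdT− dCAMs 2 of the 9 (Cd274 and Tnfsf10) passed the threshold as higher, where 7.2% of all tested genes did, and 1 (Icosl) as lower, where 4.27% did. The median log2 fold change of the 9 was 1.17 against 0.02 for all tested genes. LPS libraries lay wholly apart from CTL libraries for these 3 genes, as for 12.6% of all genes. In tdT+ dCAMs 1 ligand (Cd274) passed as higher against 3.37% of all genes, and 2 (Cd86 and Icosl) as lower against 2.52%, with a median of 1.37 against 0.01. Here the groups did not overlap for 7 of the 9, where 17.8% of all genes were without overlap. Cd80, Cd274, Pdcd1lg2 and Tnfsf14 were above and Cd86, Icosl and Tnfsf12 below in every LPS library. For Pdcd1lg2 this rests on as little as 1 count against 0, and only 3 of its 5 LPS libraries were above the floor. Setting genes at the floor to their counting ratio or bound left both medians as they were.

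Neutrophil markers moved with LPS too. The summed level of 7 markers was 46.9 to 181 CPM (tdT−) and 83.8 to 195 CPM (tdT+) in CTL mice, and 434 to 1087 CPM (tdT−) and 446 to 956 CPM (tdT+) in LPS mice. S100a8 and Mmp8 passed as higher in both populations and Csf3r in tdT−. S100a8 had at most 29.1 CPM in CTL and at least 99.98 CPM in LPS libraries, whereas S100a9 had at most 2.18 CPM and Ly6g at most 1.54 CPM in any LPS library. Retnlg lay apart between the populations of LPS mice, with 23.2 to 642 CPM (tdT−) and 0 to 1.02 CPM (tdT+). In CTL mice Retnlg had 0 to 171 CPM (tdT−) and 0 to 7.13 CPM (tdT+), and it passed in no contrast. Cxcr2 reached 7.65 CPM in tdT− LPS and 0.165 CPM in tdT+ LPS libraries. The part of neutrophils in the LPS changes of the ligands was not tested.

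In limma-voom with mouse as a replicate block, a change of both the test and the block with an estimated correlation within mouse of 0.0413, 5 of the 9 ligands passed in tdT− (27.2% of all genes in that fit) and 6 in tdT+ dCAMs (9.45% of all genes). Calls made there but not by edgeR were Pdcd1lg2 (adjusted p = 0.00416) and Tnfsf14 (0.00660) in tdT−, and Cd80 (0.0486), Tnfsf12 (0.0227) and Tnfsf14 (0.00101) in tdT+ dCAMs. The latter 3 also passed in limma-voom with quality weights and no block. Mouse numbers and depth went with the treatment, so LPS and these features cannot be told apart by design. Thinned to equal totals, 5 ligands passed in tdT+ dCAMs, with Cd80 and Tnfsf12 added, against 6.49% of all genes.

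**Figure D3:**
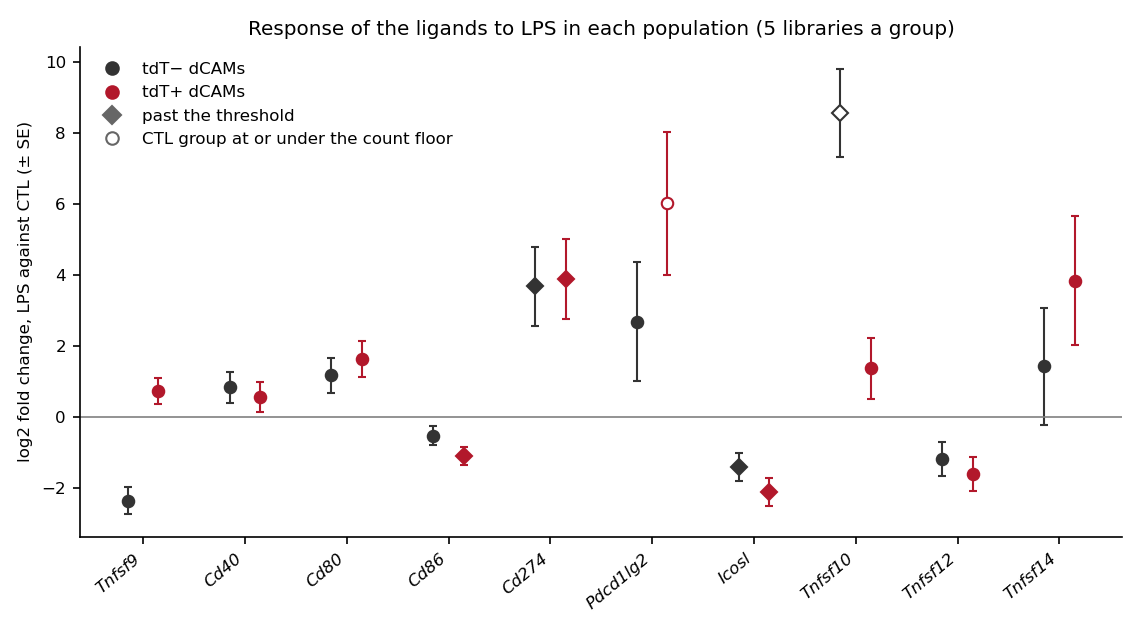
Points give the log2 fold change of LPS against CTL with its SE from edgeR for tdT− (black) and tdT+ dCAMs (red). Diamonds mark genes past the threshold and open symbols those whose CTL group lay at or under the count floor, where the fitted value is no bound. Cd274 is high in both populations (3.69 and 3.89), Icosl is low in both (−1.40 and −2.12), and Tnfsf9, shown as a description, lies on opposite sides of 0 (−2.37 and 0.73).

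Cd274 (chromosome 19, 29367455 to 29388095, plus strand), the gene for PD-L1, was the ligand with the largest rise common to both populations. In tdT− CTL libraries it had 1.82, 107, 0.368, 0.226 and 15.4 CPM in mice 174, 175, 177, 178 and 179, and in tdT− LPS libraries 320, 216, 325, 241 and 511 CPM in mice 54, 56, 59, 60 and 61. In tdT+ dCAMs the CTL libraries had 12.7, 32.7, 25.5, 13.5 and 1.46 CPM and the LPS libraries 183, 170, 242, 220 and 455 CPM. All LPS libraries were above all CTL libraries in each population, although CTL libraries varied widely and mouse 175 stood far above the rest in tdT−.

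The log2 fold change of Cd274 was 3.69 ± 1.11 in tdT− (adjusted p = 0.0328) and 3.89 ± 1.12 in tdT+ dCAMs (adjusted p = 0.0399). Both the size and the call varied between ways of processing. In tdT− the call was kept without mouse 175, 177 or 179 and lost without any of the others (adjusted p 0.0540 to 0.0774), with quality weights (0.104) and in the 10 libraries alone (0.144), and the log2 fold change ran from 3.31 to 6.55 over the alternatives. Without mouse 175, whose CTL library was the highest, it was 6.19. In tdT+ it was kept without mouse 175 or 177 and lost without any other mouse (0.0502 to 0.110), and the log2 fold change ran from 3.57 to 4.55 over the alternatives. The difference of the LPS effects was 0.20 ± 1.42. In each of the 5 LPS mice the tdT+ library had less Cd274 than the tdT− library, at 0.573 to 0.912 of its level, and the log2 difference of −0.34 (SE 1.0) did not pass (adjusted p = 1.0). It was the only ligand with 1 sign in all 5 LPS mice, as 9.9% of all genes were. Cd274 shares 511 exonic bases with an antisense gene, and the libraries do not keep strand.

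Pdcd1lg2 (chromosome 19, 29410919 to 29471161), the gene for PD-L2 next to Cd274, was at the edge of detection. Among CTL libraries it was seen only in tdT− of mouse 177, with 32 counts (3.93 CPM), and all tdT+ CTL libraries were at 0. Under LPS it had 7.44, 0.896, 2.52, 6.56 and 8.30 CPM in the tdT− libraries of mice 54, 56, 59, 60 and 61. In the tdT+ LPS libraries it had 1, 14, 10, 1 and 27 counts. The tdT+ LPS group was at least 11.8-fold above the floor of 3 counts over the tdT+ CTL group (adjusted p = 0.0966). In tdT− the log2 fold change was 2.69 ± 1.68 (adjusted p = 0.298). Without mouse 177 the CTL groups were at 0, and the fitted log2 fold changes of 8.90 in tdT− (adjusted p = 0.00693) and 6.06 in tdT+ (adjusted p = 0.0459) are no bounds. The tdT− LPS mean of 5.14 CPM against 0.707 in tdT+ LPS was in the same direction in 4 of 5 mice, with a log2 difference of −2.84 ± 1.69 for tdT+ minus tdT− (adjusted p = 1.0).

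Of the B7 pair that engages CD28 and CTLA-4, Cd80 passed the LPS comparison in neither population and Cd86, as lower, in tdT+. Cd80 (chromosome 16, 38455561 to 38496335) had 25.0, 63.2, 22.3, 45.6 and 12.4 CPM in the tdT− CTL libraries of mice 174, 175, 177, 178 and 179 and 65.6, 50.2, 51.4, 66.3 and 146 CPM in the tdT− LPS libraries of mice 54, 56, 59, 60 and 61. In tdT+ dCAMs it had 8.44, 21.1, 38.6, 19.2 and 34.0 CPM in CTL and 63.5, 84.6, 51.6, 59.5 and 118 CPM in LPS libraries. In tdT+ dCAMs all LPS libraries lay above all CTL libraries, and in tdT− dCAMs they overlapped. The difference of the LPS effects was 0.47 ± 0.69 (adjusted p = 0.986).

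The log2 fold change of Cd80 was 1.17 ± 0.49 in tdT− (adjusted p = 0.119) and 1.64 ± 0.50 in tdT+ dCAMs (adjusted p = 0.0530), so neither passed. In tdT+ it passed in 8 of 19 alternatives, among them without mouse 177 (adjusted p = 0.0416) or 179 (0.0304), and in tdT− it passed without mouse 175 (0.0374).

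Cd86 (chromosome 16, 36603869 to 36666081, minus strand) had 342, 367, 348, 447 and 418 CPM in the tdT+ CTL libraries and 142, 172, 169, 171 and 241 CPM in the tdT+ LPS libraries, in the same orders of mice. These groups did not overlap, and Cd86 fell by 1.10 on the log2 scale (SE 0.26, adjusted p = 0.0102). The call held in 18 of 19 alternatives and was lost without mouse 54 (log2 fold change −1.04, adjusted p = 0.0551). In tdT− dCAMs, Cd86 had 121 to 363 CPM (median 217) in CTL and 116 to 191 CPM (median 150) in LPS libraries, with overlap and a log2 fold change of −0.53 ± 0.26 (adjusted p = 0.175). In CTL mice the tdT+ library held more Cd86 than the tdT− library in 4 of 5 mice (log2 difference 0.82 ± 0.26, adjusted p = 0.0767), and without mouse 177, the exception, it passed (1.11 ± 0.26, adjusted p = 0.0177).

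The ratio of Cd80 to Cd86, each per kilobase of exon, was 0.0244 to 0.110 in tdT+ CTL and 0.303 to 0.487 in tdT+ LPS libraries, without overlap. In tdT− dCAMs it was 0.0565 to 0.315 in CTL and 0.267 to 0.962 in LPS libraries, with overlap. In CTL mice the median ratio was 0.204 (tdT−) and 0.0569 (tdT+), and in LPS mice 0.519 (tdT−) and 0.443 (tdT+). Cd86 thus remained the more abundant of the pair in all 20 libraries. The ratio was formed after the values of both genes were seen and was not tested.

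Icosl (chromosome 10, 78069302 to 78083913), the ligand of the T cell receptor ICOS, fell in both populations. It had 46.1, 112, 67.3, 79.6 and 46.1 CPM in tdT− CTL and 107, 173, 121, 82.5 and 106 CPM in tdT+ CTL libraries of mice 174, 175, 177, 178 and 179. Under LPS it had 27.6, 22.5, 29.7, 33.0 and 20.01 CPM in tdT− and 9.96, 26.8, 25.8, 46.4 and 26.5 CPM in tdT+ libraries of mice 54, 56, 59, 60 and 61. The highest LPS library of either population (46.4 CPM) lay at the level of the lowest CTL library (46.1 CPM, tdT−), and within each population the groups did not overlap.

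The log2 fold change of Icosl was −2.12 ± 0.40 in tdT+ (adjusted p = 0.00130) and −1.40 ± 0.39 in tdT− dCAMs (adjusted p = 0.0207). The tdT+ call held in all 19 alternatives. The tdT− call held in 13 of 19 and was lost without mouse 175 (log2 fold change −1.08, adjusted p = 0.0658), 56 (0.0691), 59 (0.0518) or 61 (0.0707), with quality weights (0.0655) and in the 10 libraries alone (0.138). In CTL mice tdT+ exceeded tdT− in 5 of 5 mice, by 1.04 to 2.33 times, and the log2 difference of 0.75 ± 0.39 did not pass (adjusted p = 0.248). The difference of the LPS effects was −0.72 ± 0.54 (adjusted p = 0.724).

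Cd40 (chromosome 2, 165055627 to 165072948), through which T helper cells license antigen-presenting cells, varied more within groups than between them. CTL libraries had 30.3 to 110 CPM (median 42.4) for tdT− and 27.1 to 122 CPM (median 63.3) for tdT+. LPS libraries had 68.6 to 130 CPM (median 94.5) for tdT− and 48.5 to 168 CPM (median 90.6) for tdT+, and all groups overlapped. The LPS log2 fold changes of 0.83 ± 0.43 in tdT− (adjusted p = 0.198) and 0.56 ± 0.43 in tdT+ dCAMs (adjusted p = 0.561) did not pass. Mouse 174 held the highest CTL value in both populations, and without it the tdT− change was 1.22 ± 0.39 (adjusted p = 0.0426).

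Tnfsf12 (chromosome 11, 69686250 to 69695849, minus strand), the gene for TWEAK, had 6.37 to 45.3 CPM (median 31.3) for tdT− and 31.2 to 44.9 CPM (median 40.8) for tdT+ in CTL mice. In LPS mice it had 8.94 to 15.8 CPM (median 12.4) for tdT− and 9.65 to 15.5 CPM (median 13.1) for tdT+. The 5 LPS libraries of tdT+ dCAMs lay below all CTL libraries, at a log2 fold change of −1.61 ± 0.49 (adjusted p = 0.0516). It passed in 9 of 19 alternatives, including DESeq2 (4.31e-05) and the removal of mouse 174 (0.0125) or 179 (0.0473). In tdT− dCAMs the value was −1.18 ± 0.48 (adjusted p = 0.111), and without mouse 174, the CTL library at 6.37 CPM, it was −1.45 ± 0.39 (adjusted p = 0.0159). Tnfsf12 shares 731 exonic bases with the readthrough gene Tnfsfm13 on the same strand, which had 0 to 54 counts per library.

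Tnfsf14 (chromosome 17, 57189492 to 57194177, minus strand), the gene for LIGHT, had a narrow range under LPS, 6.43 to 16.8 CPM in tdT− and 11.02 to 15.3 CPM in tdT+ libraries. In CTL mice it was above the floor only in mouse 178, in both of its libraries, with 212 counts (23.9 CPM) in tdT− and 43 counts (4.51 CPM) in tdT+. The other 8 CTL libraries had 0 or 1 count. The log2 fold changes were 1.43 ± 1.66 in tdT− (adjusted p = 0.602) and 3.85 ± 1.83 in tdT+ dCAMs (adjusted p = 0.248). Mouse 178 decided these values. Without it the log2 fold change was 7.48 in tdT− (adjusted p = 0.000238) and 10.26 in tdT+ (adjusted p = 7.04e-05), sizes that rest on CTL libraries of 0 or 1 count and are no bounds.

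Between the populations of LPS mice few differences were resolved. None of the 9 ligands passed by edgeR or any other fit. Of all genes 0.0301% (5 of 16632) passed, so few calls were made at all. The log2 differences lay between −2.84 (Pdcd1lg2) and 0.24 (Cd86), and their SE ranged from 0.26 for Cd86 to 1.69 for Pdcd1lg2. In CTL mice 1 of the 9 (Tnfsf10) passed by edgeR as higher in tdT+, as 3.01% of all tested genes did. Cd86 (adjusted p = 0.0767) and Pdcd1lg2 (0.0926) did not pass there.

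The receptors of these ligands gave one large change. Tnfrsf9, the receptor of Tnfsf9, had 14 counts summed over the 5 tdT− CTL libraries and 27 over the tdT+ CTL libraries, at most 2.07 CPM in any of them. Under LPS it had 397 to 698 CPM (median 564) in tdT− and 353 to 600 CPM (median 438) in tdT+ libraries. The log2 fold changes were 10.47 ± 1.20 (adjusted p = 4.19e-06) and 9.85 ± 1.16 (adjusted p = 5.21e-06). Markers of T cells, which carry this receptor when activated, summed to 0.123 to 89.9 CPM (tdT−) and 58.5 to 133 CPM (tdT+) in CTL mice, and to 3.86 to 20.6 CPM (tdT−) and 5.00 to 21.0 CPM (tdT+) in LPS mice, with Cd3d, Cd8a and Lck at 0 in all tdT− CTL libraries and Cd8a at 0 in all tdT+ LPS libraries. In tdT+ CTL libraries that T cell sum was mostly Cd4, with 42.0 to 128 CPM. Cd3e, Cd3d and Cd3g each had at most 3.93 CPM there. In tdT− CTL libraries Cd4 had 0 to 89.7 CPM. NK cell markers summed to at most 43.3 CPM in any library, where Klrk1 alone reached 43.0 CPM. Lck passed as higher under LPS in tdT− dCAMs, where it had 0 to 6.15 CPM. The part of T and NK cells in the Tnfrsf9 level was not tested.

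**Figure D4:**
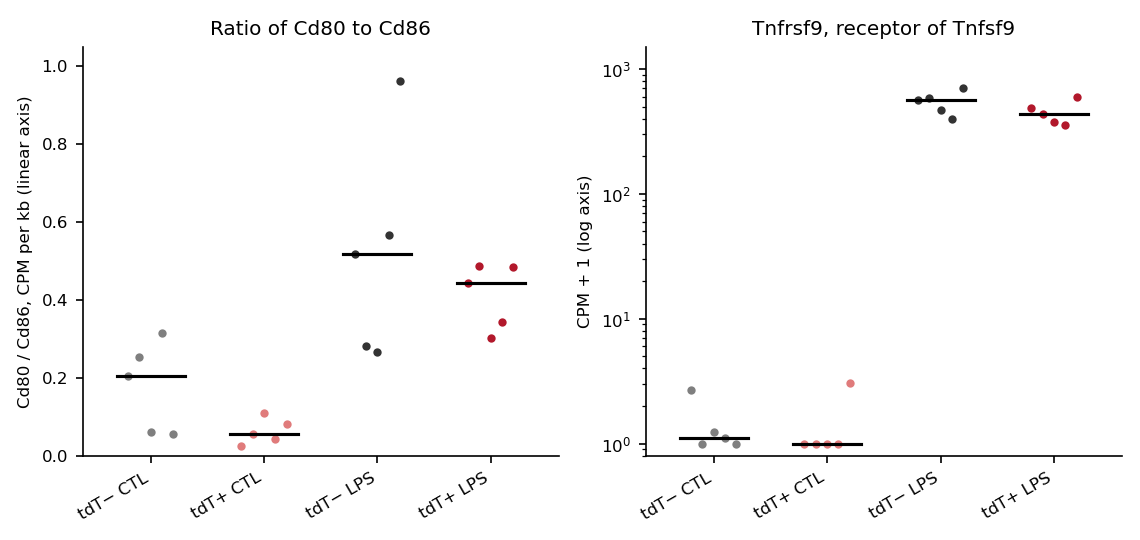
Left, the ratio of Cd80 to Cd86 per kilobase of exon in each library (points) with group medians (bars, 0.204, 0.0569, 0.519 and 0.443 from left to right) on a linear axis. Right, CPM + 1 of Tnfrsf9 on a log axis, at most 2.07 CPM in CTL and at least 353 CPM in LPS libraries.

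Of the 22 receptors tested, 4 rose in tdT− dCAMs under LPS (Tnfrsf9, Tnfrsf8, Btla and Pdcd1) and 0 fell. Of all tested genes 7.2% rose there and 4.27% fell. In tdT+ dCAMs 2 rose (Tnfrsf9 and Tnfrsf8, against 3.37% of all genes) and 1 fell (Tnfrsf13b, against 2.52%). Tnfrsf13b, a receptor of BAFF and APRIL, had a log2 fold change of −1.78 ± 0.51 (adjusted p = 0.0399). Tnfrsf8, the gene for CD30, was at 0 in all 10 CTL libraries and had means of 4.84 and 3.31 CPM in tdT− and tdT+ LPS libraries. Pdcd1, the receptor of both PD-1 ligands, was at 0 in tdT− CTL libraries and averaged 4.22 CPM in tdT− LPS libraries, 1 of which was also at 0 (adjusted p = 0.0292). In tdT+ dCAMs Pdcd1 averaged 3.59 CPM in CTL and 4.10 CPM in LPS libraries. Btla, which binds HVEM, was at 0 in tdT− CTL and averaged 16.3 CPM in tdT− LPS libraries (adjusted p = 0.0124). It averaged 1.22 CPM in tdT+ CTL and 0.0681 CPM in tdT+ LPS libraries. The part of the sparseness of tdT− CTL libraries in these receptor rises was not tested. Cd28, Ctla4 and Icos, receptors found mainly on T cells, averaged at most 4.59 CPM in any group. The median log2 fold change over the 22 receptors was 0.61 in tdT− and 0.36 in tdT+ dCAMs, against 0.02 and 0.01 over all tested genes.

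Among 12 further TNF superfamily ligands tested, Tnf was the one past the threshold. It fell in tdT− dCAMs from 299 ± 185 to 95.5 ± 16.3 CPM (SD, n = 5; log2 fold change −1.64 ± 0.36, adjusted p = 0.00391), the same direction as Tnfsf9 there, and 0 passed in the other contrasts. Of all tested genes 4.27% fell in tdT− dCAMs. Over these 12 ligands the median log2 fold change was 0 for tdT− and −0.64 for tdT+, against 0.02 and 0.01 over all genes.

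Among 14 further B7, nectin and SLAM family ligands tested, 2 rose and 2 fell in tdT− dCAMs, and 1 rose and 1 fell in tdT+ dCAMs. Of all tested genes 7.2% rose and 4.27% fell in tdT−, and 3.37% rose and 2.52% fell in tdT+. Slamf1, a self-ligand of lymphocytes and macrophages, was at 0 in all tdT− CTL libraries, had 0 to 10.2 CPM in tdT+ CTL, and reached 38.3 to 112 CPM (tdT−) and 30.6 to 196 CPM (tdT+) under LPS (adjusted p = 0.000104 in tdT− and 0.0255 in tdT+). Like Tnfsf10 it passed between the populations of CTL mice as higher in tdT+ (adjusted p = 0.00480), as 3.01% of all tested genes did. Lgals9 (galectin-9) rose in tdT− dCAMs by 1.10 ± 0.25 (adjusted p = 0.00512). Cd48, a ligand of CD2 and 2B4, fell in tdT− (−1.04 ± 0.27, adjusted p = 0.0121) and tdT+ dCAMs (−1.15 ± 0.27, adjusted p = 0.00867). Icam1, the adhesion ligand of LFA-1, fell in tdT− (−1.21 ± 0.33, adjusted p = 0.0192). The list medians were 0.12 (tdT−) and 0.18 (tdT+), against 0.02 and 0.01 over all tested genes.

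Of 12 adaptors and noncanonical NF-κB genes that act behind CD40 and other TNF receptors, only Traf1 passed. It rose in tdT+ dCAMs under LPS (2.30 ± 0.56, adjusted p = 0.0120), and in CTL mice it was lower in tdT+ than in tdT− dCAMs (−1.92 ± 0.55, adjusted p = 0.0492). Of all tested genes 3.37% rose in tdT+ dCAMs under LPS, and 212 of 16632 were lower in tdT+ in CTL mice. The medians were 0.24 and 0.45 for LPS in tdT− and tdT+ dCAMs, against 0.02 and 0.01 over all tested genes. Of 10 cytokines that instruct T cells, Ebi3, a subunit of IL-27 and IL-35, rose in tdT− (1.39 ± 0.30, adjusted p = 0.00357) and tdT+ dCAMs (1.65 ± 0.30, adjusted p = 0.00106). Il15, which maintains memory T cells and NK cells, fell in tdT− (−2.58 ± 0.59, adjusted p = 0.00547) and tdT+ dCAMs (−2.74 ± 0.60, adjusted p = 0.00515). These calls stand against 7.2% of all genes that rose and 4.27% that fell in tdT−, and 3.37% and 2.52% in tdT+. The medians over these cytokines were 0.52 and 1.45, against 0.02 and 0.01 over all genes.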

How the data were processed

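Raw counts by gene symbol were deposited by the authors, who obtained them with STAR 2.7.11a and featureCounts (2.0.6 in the submitters' processing notes). The genome build for this experiment was not settled by the sources used here, so GRCm38 with GENCODE M21 served to locate genes and to give exon lengths. Libraries were made from picogram amounts of RNA by PCR without molecular identifiers, so intervals and floors cover counting error only.

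Groups came from the labels. Genes with a total under 10 over the 20 libraries were left out, and the rest were fitted jointly by the quasi-likelihood test of edgeR 4.0.16 (R 4.3.3) with TMM scaling, 1 mean per group and 5 contrasts (LPS against CTL in each population, tdT+ against tdT− in each treatment, and the difference of the LPS effects). The common biological coefficient of variation was 1.13. The threshold was a Benjamini-Hochberg adjusted p under 0.05 over all tested genes with an absolute log2 fold change over 1. The SE of edgeR values was derived from the test, as the absolute log2 fold change divided by the square root of its F statistic. Tested on simulated counts, the script made no call among unchanged genes. Each unchanged gene had 1 mean over all groups there, so the sparse tdT− CTL libraries were not reproduced. Calls among the 200 genes given a 4-fold change are not reported here, so missed calls are not covered. Correlations with Tnfsf9 used log2 CPM with a prior count of 2.

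The mouse number pairs the tdT+ and tdT− library, since both came from 1 dura. Deviations of paired libraries from their group means correlated across genes at −0.00460 to 0.0461 in CTL and 0.228 to 0.449 in LPS mice. Alternatives were DESeq2 1.42.0 and limma 3.58.1 (voom), other filters and scaling, a block for mouse, thinning, the letter that starts the sample title as a covariate, and leaving out each of the 10 mice. The members and lists were chosen with earlier results of these data known. Named genes are the 10 ligands, list genes past the threshold (at most 4 per list and contrast, by p), and the 5 genes most like Tnfsf9. Receptors below the threshold were named after their values were seen. Ccr2 and Plac8 stand for the monocyte markers, chosen after their values were seen, and 1 marker of that list is not reported here.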

Additional observations from a re-analysis of the deposited data

Results flagged for a closer look

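Of 43 sets of 5 libraries tested for a library far from the rest (10 ligands and Tnfrsf9 in each group), 9 held one by Dixon's test, where chance alone gives about 1 in 20. In CTL mice these were Cd274 in tdT− of mouse 175 (107 CPM), Pdcd1lg2 in tdT− of mouse 177 (3.93 CPM), and Tnfsf14 in both libraries of mouse 178 (23.9 CPM in tdT− and 4.51 CPM in tdT+). Tnfrsf9 stood out in tdT− of mouse 174 (1.67 CPM) and tdT+ of mouse 179 (2.07 CPM). Each was the only library of its group above the count floor. In LPS mice they were Cd80 in tdT− of mouse 61 (146 CPM), Cd274 in tdT+ of mouse 61 (455 CPM) and Tnfsf10 in tdT+ of mouse 60 (84.1 CPM). All 9 were the highest library of their group.

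Responses to LPS differed between the populations for 4 genes, as the LPS effect in tdT+ minus that in tdT− dCAMs on the log2 scale. The value was 3.09 for Tnfsf9, which was chosen for it. It was −7.21 for Tnfsf10, −8.42 for Slamf1 and −14.41 for Btla. The fitted sizes of the latter 3 rest on groups at or near 0 counts and are no bounds.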

How the results depend on the processing

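Counts of the 9 ligands past the threshold moved by more than 1.5 times in the following alternatives, and the cause was not tested. For LPS in tdT− dCAMs the count of 3 became 1 with quality weights, 1 in the libraries of the comparison alone and 5 with mouse as a replicate block in voom, and ran from 1 to 4 when each mouse was left out. Of all tested genes, 1907 of 16632 passed in the main fit and 1906 of 16631 with quality weights. In the libraries alone 891 of 15278 passed, and with the replicate block 4523 of 16628. Without each mouse 1335 to 2591 genes passed. For LPS in tdT+ dCAMs the count of 3 became 5 with filterByExpr, 6 with DESeq2, 8 with quality weights, 6 with the replicate block, 6 in the libraries alone and 5 with thinned counts, and ran from 1 (without mouse 54) to 5 when each mouse was left out. Calls over all genes changed as well, from 979 of 16632 in the main fit. They were 1063 of 12052 with filterByExpr, 1533 of 16632 with DESeq2 and 3155 of 16632 with quality weights. With the replicate block they were 1571 of 16629, in the libraries alone 2262 of 14846 and thinned 981 of 15123. Without each mouse they ran from 694 to 1081, with 763 of 15861 without mouse 54. For the populations in CTL mice the count of 1 became 2 with DESeq2, 0 with quality weights and 0 in the libraries alone, and ran from 1 to 2 without each mouse. All-gene calls there were 712 of 16632 in the main fit and 1640 of 16632 with DESeq2. With quality weights they were 369 of 16631, in the libraries alone 7 of 14405, and without each mouse 478 to 1352. For the difference of the LPS effects the count of 1 became 0 with quality weights and ran from 0 to 1 without each mouse. Over all genes 209 of 16632 passed for it in the main fit, 220 of 16631 with quality weights and 63 to 640 without each mouse. The replicate block changed no call between the populations or of the difference. Tnfsf10 and Icosl kept their LPS calls in all 19 alternatives in tdT− and tdT+ dCAMs, respectively.

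Values that changed sign were all of contrasts in which the ligand did not pass. In CTL mice the log2 difference of Cd274 (−0.54) became 1.85 with quality weights, 1.73 with the replicate block in voom and 1.999 with the replicate block in edgeR, and ran from −1.05 to 1.61 without each mouse, while that of Cd80 ran from −0.84 to 0.079. In LPS mice that of Cd80 (−0.0093) became 0.0060 with DESeq2 size factors, 0.0061 with DESeq2, 0.015 with the title letter, 0.015 thinned, 0.15 with quality weights, 0.12 with the replicate block in voom and 0.047 with that in edgeR, and ran from −0.17 to 0.15 without each mouse. There Icosl became −0.098 with quality weights and −0.11 and −0.086 with the replicate block in voom and edgeR (−0.16 to 0.27 without each mouse), Cd40 −0.025 with the replicate block in edgeR (−0.086 to 0.14), Tnfsf10 0.045 with quality weights (−0.42 to 0.29), Tnfsf12 −0.0094 thinned (−0.080 to 0.13) and Tnfsf14 −0.026 with the title letter and −0.094 thinned (−0.16 to 0.16). The difference of the LPS effects became −2.15 with quality weights, −2.004 with the replicate block in voom and −2.37 with that in edgeR for Cd274 (−1.92 to 0.70 without each mouse) and −1.42 and −1.77 with quality weights and the replicate block in voom for Pdcd1lg2 (2.80 to 3.73), and for Cd80 it ran from −0.053 to 0.83. Without mouse 177 Pdcd1lg2 had no CTL counts in either population and gave no value for these contrasts.

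Counting noise limits Pdcd1lg2, Tnfsf14 and Tnfsf10 in CTL libraries, where most hold 3 counts or fewer.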
